A study of Mus musculus with 27 samples.

Results

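Transcripts of 10 endoplasmic reticulum (ER) chaperones and folding enzymes were followed in bone marrow-derived macrophages from WT and TRAP1 KO mice. Hspa5, Calr, Canx, Hsp90b1, Pdia3, Pdia4, Pdia6, Sdf2l1, Manf and Dnajb9 were chosen by their measured levels (TMM CPM) across 8 groups, so their levels and fold changes are given below as descriptions. Calls from the fit over all genes are counted for them beside the share of all genes called, and nothing is read from those counts. That share is always the one of the main fit to batch 1. It is not given for fits with other libraries or settings, so a change of counts there cannot be read as particular to these genes. They are 10 of the 50559 genes in the deposited table, and all 10 passed the filter on low counts. The cells are described as from female C57BL/6 mice of 3–4 months, either WT or TRAP1-deficient, and were left unpolarized (Mφ, labelled M0) or polarized for 24 h with 10 ng/ml of IL-4 (M2). Both then spent 48 h in medium conditioned by malignant peripheral nerve sheath tumor cells (MPNST-CM) or in DMEM as control medium, with a medium change after 24 h. The groups were thus WT and TRAP1 KO, Mφ and M2, in control medium and in MPNST-CM, with 3 libraries each of QuantSeq 3′ mRNA-seq in batch 1. The mice are described as TRAP1-deficient with no restriction to macrophages stated, and how many animals gave the libraries of a group was not given in the sources used here. The p-values therefore measure the spread between these libraries, which may be technical. In such bulk samples, fewer cells of a type and less RNA per cell cannot be told apart.

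ER chaperones bind proteins that enter the secretory pathway and hold them until they are folded. Hspa5 (BiP, Grp78) is the Hsp70 of the ER, and its cycle is driven by J-domain proteins such as Dnajb9 (ERdj4) and by exchange factors. Hsp90b1 (Grp94) is the Hsp90 of the ER, Calr and Canx are the lectins that retain glycoproteins for folding, Pdia3, Pdia4 and Pdia6 form and rearrange disulfide bonds, Sdf2l1 binds ER J-domain proteins, and Manf is a small protein of the ER that is secreted under stress. When unfolded proteins build up, the sensors Ern1 (IRE1α), Eif2ak3 (PERK) and Atf6 start the unfolded protein response, in which spliced Xbp1, cleaved Atf6 and Atf4 switch on overlapping sets of genes. In macrophages, Arg1, Retnla and Chil3 are well-known examples of the target genes of IL-4.

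Many promoters of ER chaperones carry the ER stress element, in which CCAAT is followed after 9 bases of any kind by CCACG and which is bound by NF-Y together with Atf6 or Xbp1. The promoters below are shown because they carry these letters, or, for Sdf2l1, because it is the gene with the widest range of levels here. They were taken from RefSeq on GRCm38.p6 and hold the 250 bases before the annotated start of the gene, written 5′ to 3′ on the strand of the gene, with the letters CCAAT and CCACG, or their reverse complements ATTGG and CGTGG, in capitals where they make up the element.
Hspa5: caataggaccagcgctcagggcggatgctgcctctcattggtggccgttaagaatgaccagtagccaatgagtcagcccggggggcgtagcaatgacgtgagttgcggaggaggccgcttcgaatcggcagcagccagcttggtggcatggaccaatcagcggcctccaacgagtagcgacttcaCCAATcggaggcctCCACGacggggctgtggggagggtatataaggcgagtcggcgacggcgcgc
Hsp90b1: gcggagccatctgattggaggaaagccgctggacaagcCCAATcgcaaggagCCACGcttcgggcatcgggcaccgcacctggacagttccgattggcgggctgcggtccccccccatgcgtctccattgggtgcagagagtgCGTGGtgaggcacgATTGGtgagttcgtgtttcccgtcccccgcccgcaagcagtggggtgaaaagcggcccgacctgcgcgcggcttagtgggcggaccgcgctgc
Calr: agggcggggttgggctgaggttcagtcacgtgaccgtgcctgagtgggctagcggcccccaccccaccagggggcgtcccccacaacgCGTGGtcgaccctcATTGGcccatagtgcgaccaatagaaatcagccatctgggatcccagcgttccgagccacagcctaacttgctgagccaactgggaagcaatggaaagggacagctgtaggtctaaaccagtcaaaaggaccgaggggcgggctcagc
Canx: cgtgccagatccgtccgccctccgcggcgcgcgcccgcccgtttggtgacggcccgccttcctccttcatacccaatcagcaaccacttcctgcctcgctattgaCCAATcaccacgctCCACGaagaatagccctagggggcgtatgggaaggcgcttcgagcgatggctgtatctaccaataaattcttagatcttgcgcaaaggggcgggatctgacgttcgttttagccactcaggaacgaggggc
Pdia6: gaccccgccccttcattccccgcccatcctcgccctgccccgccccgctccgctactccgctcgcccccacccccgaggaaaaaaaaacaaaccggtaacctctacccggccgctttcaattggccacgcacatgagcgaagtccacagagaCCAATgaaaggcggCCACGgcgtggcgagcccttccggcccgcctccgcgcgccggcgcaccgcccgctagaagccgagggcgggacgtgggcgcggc
Sdf2l1: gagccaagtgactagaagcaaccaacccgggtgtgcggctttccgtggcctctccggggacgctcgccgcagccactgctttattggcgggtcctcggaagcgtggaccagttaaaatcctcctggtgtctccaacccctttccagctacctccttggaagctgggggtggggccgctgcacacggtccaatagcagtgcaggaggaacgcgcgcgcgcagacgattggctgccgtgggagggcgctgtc
The stretch of Hspa5 lies at chr2:34771840-34772089 on the plus strand, that of Hsp90b1 at chr10:86705445-86705694 on the minus strand and that of Calr at chr8:84846932-84847181 on the minus strand. Those of Canx, Pdia6 and Sdf2l1 lie at chr11:50325674-50325923 on the minus strand, chr12:17266339-17266588 on the plus strand and chr16:17132384-17132633 on the minus strand. Entries were found for 9 of the 10 genes, all but Manf, and 5 of the 9 held the element on either strand. Counted in bases from the start of the gene, it lay from -65 to -47 in Hspa5, from -98 to -80 in Pdia6 and from -145 to -127 in Canx. Calr held it on the opposite strand, from -162 to -144. Hsp90b1 held 2, from -212 to -194 and, on the opposite strand, from -107 to -89. Among all 32851 promoter windows of 300 bases in the same table, 39 (0.119%) held the element, and 5 of the 107 other ER genes with an entry did (Creld2, Derl3, Dnajc3, Ero1b and Syvn1). A spacer of 8 to 10 bases gave the same 5 chaperones and 60 windows (0.183%). The unfolded protein response element TGACGTGG, which contains the CGTGG of the reverse complement, was searched on both strands and was in 0 of the 9 windows and in 222 (0.676%) of all windows. Such a match describes the letters and not binding of a factor.

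**Figure D1:**
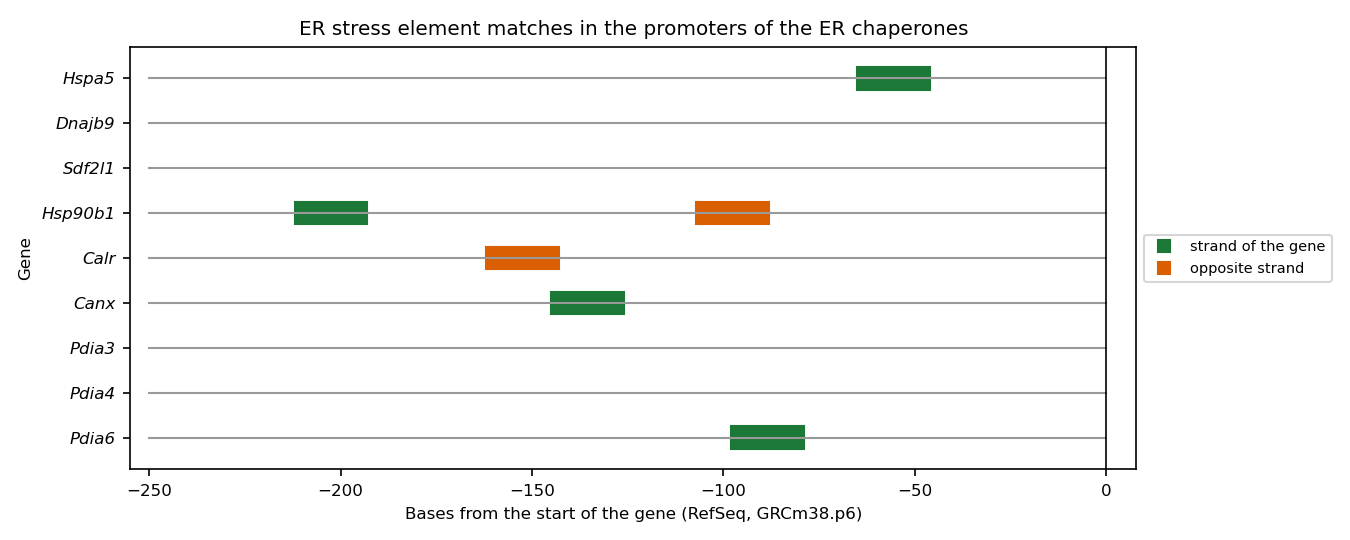
Positions of the ER stress element letters in the promoters of 9 of the 10 ER chaperones, with the distance from the start of the gene in bases on the x axis and 1 line per gene. Boxes mark the 6 matches, in green on the strand of the gene and in orange on the opposite strand, and Dnajb9, Sdf2l1, Pdia3 and Pdia4 hold none in this window.

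The libraries of batch 1 held between 7037684 and 9089792 counts on genes, and a transcript under 3 counts was not detectable at this depth, which covers counting error only. The fewest counts of any of the 10 chaperones in a library were 100, for Dnajb9. Trap1 had 83 to 144 counts in the 12 WT libraries and 0 in the 12 TRAP1 KO libraries of batch 1, as their labels state. Xist, the RNA of the inactive X chromosome, was read at 254 to 504 CPM in these WT libraries but at 0 to 1.14 CPM in the TRAP1 KO libraries, so in batch 1 the genotype cannot be told apart from the difference in Xist. All 8 macrophage markers were detected throughout, while the T cell markers summed to at most 0.248 CPM, the B cell markers to at most 4.35 CPM, the neutrophil markers to at most 16.2 CPM and the endothelial markers to between 2.84 and 60.9 CPM. Cd79a of the B cell markers and Tek of the endothelial markers were at 0. Each library of batch 1 correlated best with its own group, but in 5 groups (all 4 of Mφ, and WT M2 in MPNST-CM) replicate 1 stood apart, as a chi-square over degrees of freedom of 16.04 to 37.4 set it apart from the other libraries of its group, between which the value was 2.11 to 3.42. The libraries of WT M2 in control medium are numbered from 2 to 4. Counts without these 5 libraries, an alternative chosen after seeing the data, are given where they change a statement. Of the 3 libraries of batch 2, 2 lay closer to other groups than to their own by rank correlation. The one labelled TRAP1 KO M2 in MPNST-CM lay closest to WT M2 in control medium (0.9834, against 0.9496 with its own group). The one labelled TRAP1 KO M2 in control medium lay closest to TRAP1 KO Mφ in MPNST-CM (0.9695, against 0.9146). Both had Xist (308 and 404 CPM). Their Trap1 counts were 0 and 2, beside 252 in the batch 2 library of WT Mφ in control medium. Trap1 thus went with their TRAP1 KO labels, although the group they lay closest to was not that of their label. The values below are therefore those of the 24 libraries of batch 1, and counts with all 27 libraries stand beside them.

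On average the 10 chaperones were highest in WT M2 cells in control medium, and in TRAP1 KO M2 cells in MPNST-CM they were no higher than in Mφ in control medium. Their mean log2 CPM was 8.48 ± 0.057 (SD, n = 3) in WT M2 in control medium, 8.31 ± 0.12 in WT M2 under MPNST-CM and 8.28 ± 0.093 in TRAP1 KO M2 in control medium. It was 8.01 ± 0.058 in WT Mφ in MPNST-CM, 7.72 ± 0.053 in TRAP1 KO Mφ in control medium and 7.65 ± 0.038 in WT Mφ in control medium. In MPNST-CM, TRAP1 KO Mφ had 7.62 ± 0.050 and TRAP1 KO M2 had 7.62 ± 0.018. The libraries of neighbouring groups in this order overlapped among the 3 highest groups and among the 3 lowest, whereas those of WT Mφ in MPNST-CM stood apart from every other group, and those of TRAP1 KO Mφ in control medium from all groups below it. Across the 8 group means, Sdf2l1 varied most, with its highest mean 4.44 times the lowest, followed by Calr with 3.21 times and Pdia4 with 2.24 times. Canx varied least, with 1.58 times. WT M2 in control medium had the highest mean for 6 of the 10 genes, TRAP1 KO M2 in control medium for Canx and Pdia3, WT M2 in MPNST-CM for Pdia4 and TRAP1 KO M2 in MPNST-CM for Dnajb9.

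**Figure D2:**
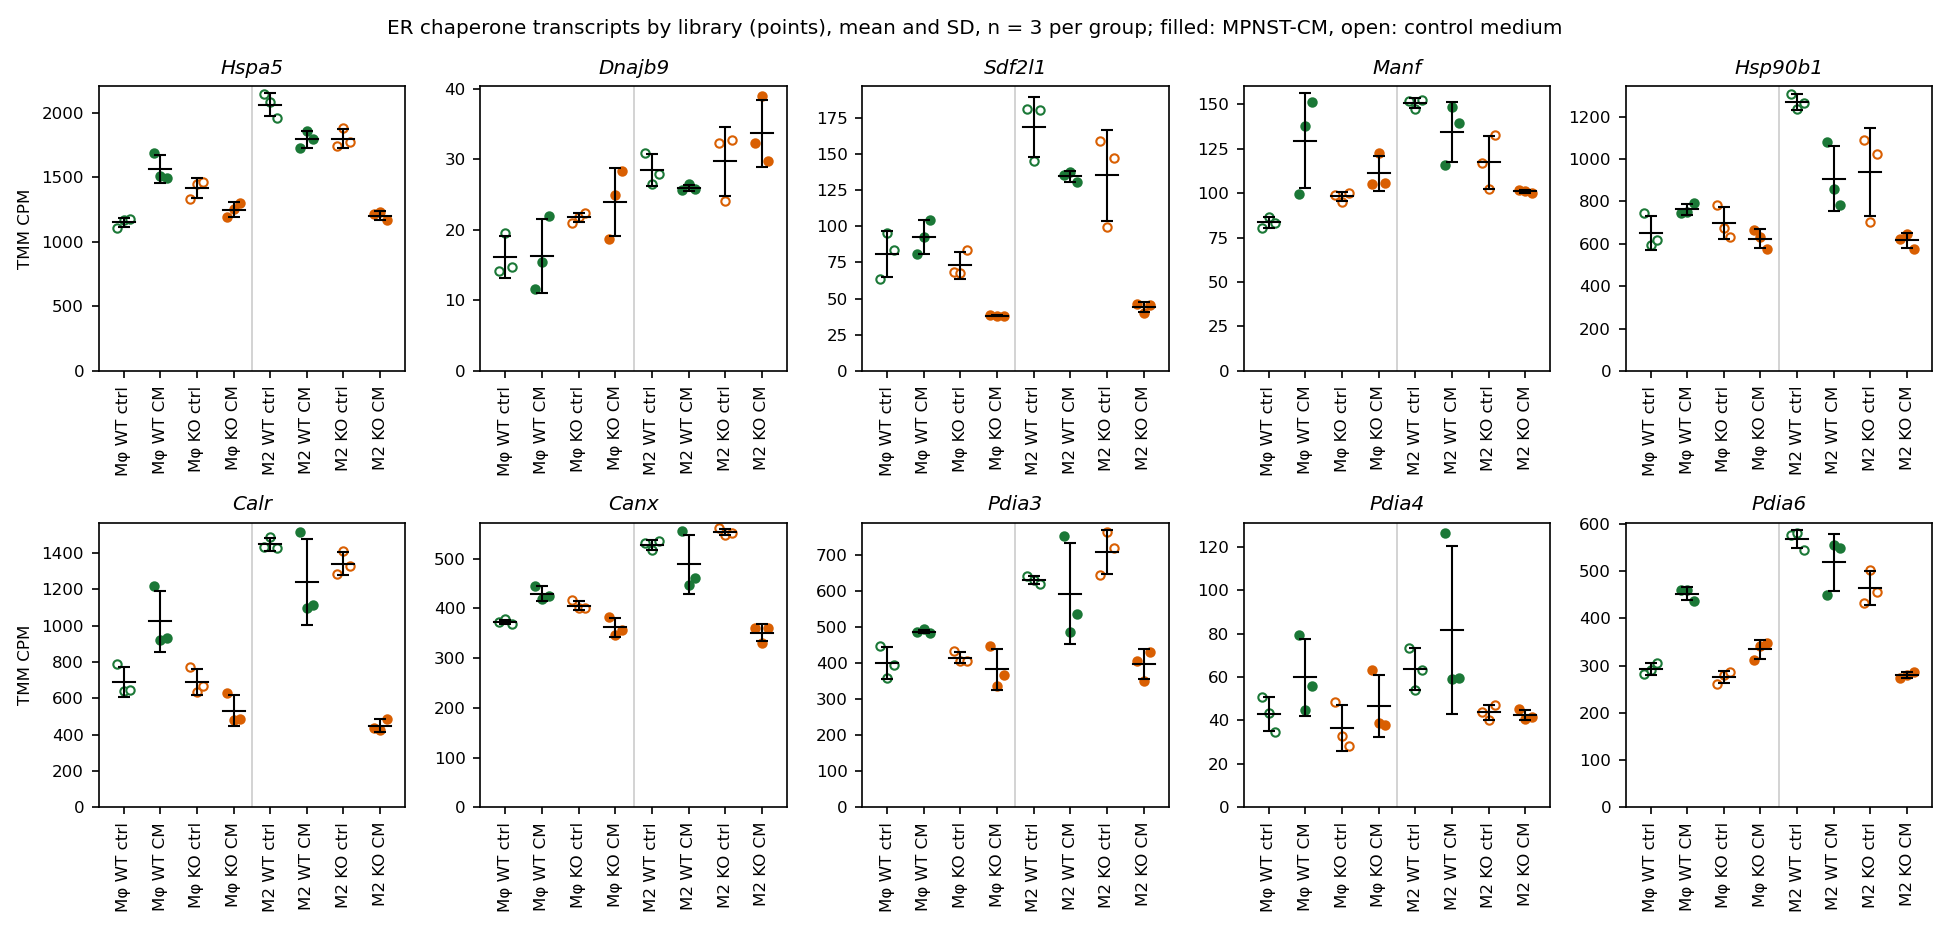
Levels of the 10 ER chaperones in TMM CPM (y axes, each from 0) in the 24 libraries of batch 1 by group (x axes), with points for libraries and black lines for the mean and SD (n = 3). WT is green and TRAP1 KO (KO) orange, open points are control medium (ctrl) and filled points MPNST-CM (CM), and Sdf2l1 and Calr show the deepest drop, from M2 KO ctrl to M2 KO CM.

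The first comparison asked how IL-4 polarization changed these transcripts in control medium. Levels are given in TMM CPM, as 3 libraries or as mean ± SD (n = 3), and the values with a standard error (SE) that follow them are log2 fold changes. Every one of the 10 had a higher mean in M2 than in Mφ, in WT and in TRAP1 KO cells alike, and in WT cells the gain was close to 2-fold for Calr, Sdf2l1, Hsp90b1 and Pdia6. Hspa5 had 1108, 1171 and 1172 CPM in the 3 libraries of WT Mφ and 2140.4, 2084 and 1961 CPM in those of WT M2, a log2 fold change of 0.84 (SE 0.07). In TRAP1 KO cells, Hspa5 had 1329, 1450.3 and 1465 CPM in Mφ and 1739, 1881 and 1775 CPM in M2, a log2 fold change of 0.35 (SE 0.07). The groups did not overlap in either genotype, and TRAP1 KO started higher in Mφ and ended lower in M2. Sdf2l1 had 63.9, 95.2 and 83.8 CPM in WT Mφ and 181, 145 and 181 CPM in WT M2 (1.06, SE 0.15 on the log2 scale), with no overlap. In TRAP1 KO, Sdf2l1 had 68.3, 67.4 and 83.9 CPM in Mφ and 159, 99.4 and 147 CPM in M2 (0.89, SE 0.15), where 1 M2 library lay well below the other 2 but above all Mφ libraries.

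Hsp90b1 went from 743, 595 and 618 CPM in WT Mφ to 1308, 1237 and 1263 CPM in WT M2 (0.96, SE 0.13). In TRAP1 KO it had 783, 675 and 634 CPM in Mφ and 1089.7, 704 and 1024 CPM in M2 (0.43, SE 0.13), and here the groups overlapped through M2 replicate 2. Without that library the fold change was 0.61. Among the lectins, Calr had 788, 642 and 646 CPM in WT Mφ and 1433, 1491 and 1426 CPM in WT M2 (1.07, SE 0.13), and 772, 634 and 667 CPM in TRAP1 KO Mφ against 1288, 1411 and 1328 CPM in TRAP1 KO M2 (0.96, SE 0.13). Canx, its membrane-bound partner, went from 373 ± 4.46 to 527 ± 9.83 CPM in WT and from 406 ± 9.34 to 554 ± 6.56 CPM in TRAP1 KO. Neither lectin overlapped between Mφ and M2 in either genotype.

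Of the disulfide isomerases, Pdia6 had 283, 289.9 and 306 CPM in WT Mφ and 576, 580.3 and 545 CPM in WT M2 (0.95, SE 0.08). In TRAP1 KO, Pdia6 had 261, 279 and 287 CPM in Mφ and 432, 502 and 456 CPM in M2 (0.75, SE 0.08). Pdia3, which works with Calr and Canx on glycoproteins, went from 401 ± 44.6 to 632 ± 10.5 CPM in WT and from 416 ± 16.1 to 709.7 ± 59.9 CPM in TRAP1 KO. Pdia3 and Pdia6 did not overlap between Mφ and M2 in either genotype. Pdia4 differed less, with 43.01 ± 7.91 and 63.5 ± 9.65 CPM in WT and with 36.5 ± 10.6 and 43.8 ± 3.57 CPM in TRAP1 KO, where the groups overlapped. Manf had 83.6 ± 3.03 CPM in WT Mφ and 151 ± 2.88 CPM in WT M2 (0.85, SE 0.12), and a smaller difference in TRAP1 KO (0.26, SE 0.12). Dnajb9, which hands clients to Hspa5 for degradation, had 14.1, 19.5 and 14.7 CPM in WT Mφ and 30.9, 26.4 and 27.9 CPM in WT M2 (0.82, SE 0.18), and 21.01, 21.9 and 22.4 CPM in TRAP1 KO Mφ against 32.3, 24.1 and 32.7 CPM in TRAP1 KO M2 (0.45, SE 0.18).

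Called here means a Benjamini-Hochberg adjusted p under 0.05 in edgeR's quasi-likelihood test over 13614 genes. In WT, 9 of the 10 chaperones were called, all higher in M2, beside a background of 19.1% higher and 18.1% lower among all genes tested, and their median log2 fold change was 0.85. In TRAP1 KO, 7 were called, all higher, beside 15.6% higher and 12.9% lower, with a median of 0.45. With all 27 libraries these counts were 8 and 3, with medians of 0.81 and 0.32. Over all genes tested the median log2 fold change lay between -0.04 and 0.05 in each of the 12 comparisons made here. The counts are descriptions, since the genes were chosen on these levels. The 5 markers of IL-4-treated macrophages, of which 2 were detected in all 24 libraries, summed to between 828.99 and 873 CPM in WT Mφ and to 2597 to 2617 CPM in WT M2 in control medium. In TRAP1 KO these sums were 848 to 915 CPM and 2381 to 2637 CPM. They were higher in MPNST-CM also without IL-4, at 1281 to 1513 CPM in WT Mφ and 2697 to 2818 CPM in TRAP1 KO Mφ. In M2 in MPNST-CM they were 4105 to 4210 CPM in WT and 4022 to 4459 CPM in TRAP1 KO. The endothelial markers summed to 18.3 to 23.4 CPM in WT Mφ and 2.84 to 3.29 CPM in WT M2, and the neutrophil markers to 7.01 to 9.8 CPM and 12.2 to 16.2 CPM. In TRAP1 KO the endothelial sums were 26.8 to 33.02 CPM in Mφ and 3.58 to 4.79 CPM in M2, and the neutrophil sums 1.87 to 1.98 CPM and 8.46 to 11.01 CPM. Their part in the differences with IL-4 was not tested. Without the 5 libraries of replicate 1, 10 chaperones were called in each genotype, with medians of 0.83 and 0.52.

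**Figure D3:**
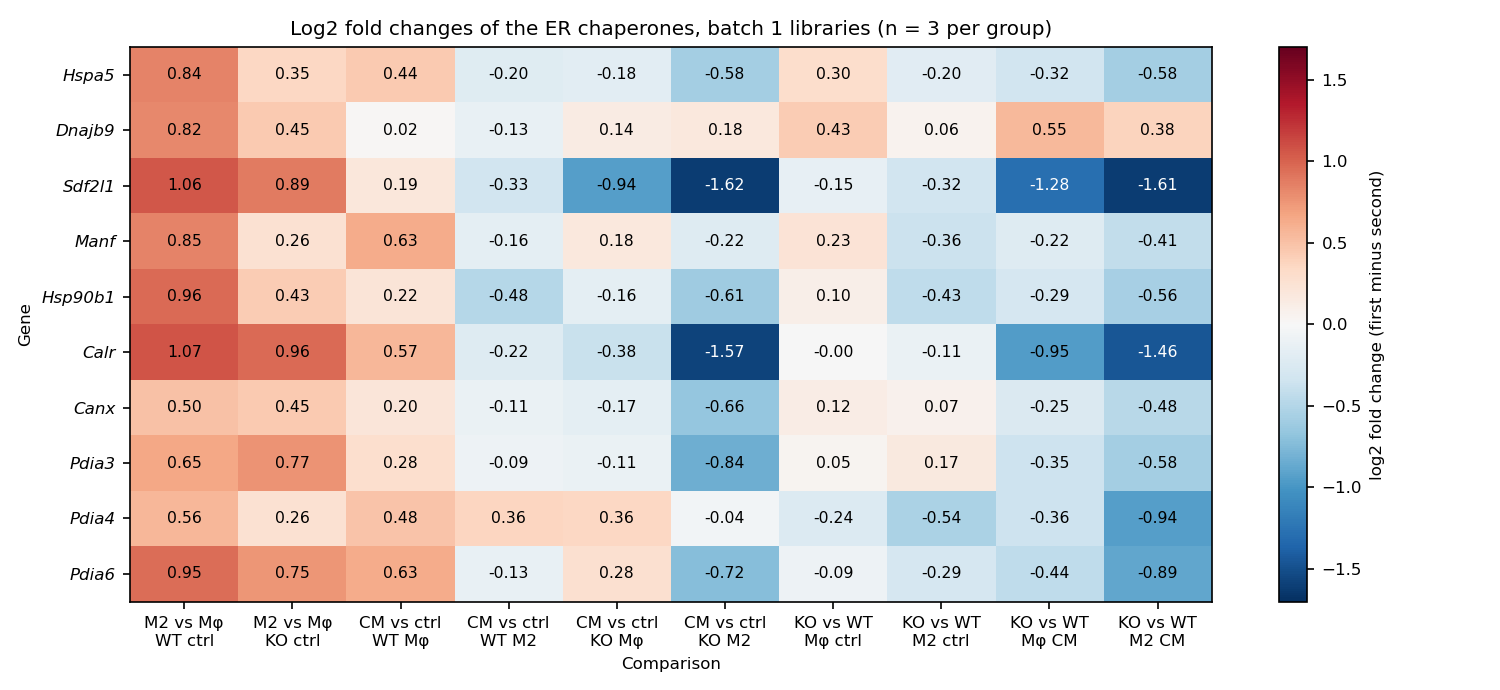
Log2 fold changes of the 10 ER chaperones (rows) in 10 comparisons (columns), from the 24 libraries of batch 1 with 3 per group, in red where the first-named group was higher and in blue where it was lower. The M2 columns are red throughout, and the deepest blue is in the columns for KO M2, with -1.62 for Sdf2l1 and -1.57 for Calr in MPNST-CM against control medium.

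The next comparison was that of MPNST-CM with control medium in WT cells. In WT Mφ all 10 chaperones had a higher mean in MPNST-CM, led by Manf, Pdia6 and Calr, whereas in WT M2 cells 9 of the 10 had a lower mean and the differences were small. Hspa5 had 1687, 1505 and 1494 CPM in the 3 libraries of WT Mφ in MPNST-CM, all above the 1108, 1171 and 1172 CPM in control medium (0.44, SE 0.07). In WT M2 it had 1726, 1857 and 1792 CPM in MPNST-CM (-0.20, SE 0.07), all below the M2 libraries in control medium. The mean of Hspa5 was thus higher in WT Mφ and lower in WT M2 with MPNST-CM, but without the 5 libraries of replicate 1 the value in M2 was -0.11 and not called. Pdia6 had 459, 460.4 and 437 CPM in WT Mφ in MPNST-CM (0.63, SE 0.08), with no overlap, and 449, 556 and 549 CPM in WT M2 under MPNST-CM (-0.13, SE 0.08), where the groups overlapped. Calr had 1218, 924 and 934 CPM in WT Mφ in MPNST-CM (0.57, SE 0.13), and 1514, 1097 and 1112 CPM in WT M2 under MPNST-CM (-0.22, SE 0.13). Replicate 1 was the highest Calr library of both groups in MPNST-CM, and in M2 it made the groups overlap.

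Hsp90b1 had 745, 748 and 793 CPM in WT Mφ in MPNST-CM (0.22, SE 0.13) and 1081, 861 and 782 CPM in WT M2 under MPNST-CM (-0.48, SE 0.13), the largest difference of the 10 in WT M2. Manf had 129.7 ± 26.9 CPM in WT Mφ in MPNST-CM (0.63, SE 0.12) and 135 ± 16.8 CPM in WT M2 under MPNST-CM (-0.16, SE 0.12). Both had a higher mean in Mφ and a lower mean in M2 with MPNST-CM. Sdf2l1 differed little in WT cells, with 80.8, 92.7 and 104 CPM in Mφ and 136, 138 and 131 CPM in M2 in MPNST-CM. The M2 libraries all lay below those in control medium (-0.33, SE 0.15), and the Mφ libraries overlapped with theirs (0.19, SE 0.15). Pdia4 was the exception in WT M2, with a mean of 81.7 ± 38.5 CPM in MPNST-CM (0.36, SE 0.29), and this rested on replicate 1 at 126 CPM: without it the log2 fold change was -0.02. Canx had 429 ± 14.5 and Pdia3 489 ± 5.23 CPM in WT Mφ in MPNST-CM, without overlap with control medium. In WT M2 in MPNST-CM, Canx had 488 ± 58.98 and Pdia3 593 ± 141 CPM, with overlap. Dnajb9 had 11.6, 15.4 and 21.9 CPM in WT Mφ in MPNST-CM and 25.6, 26.5 and 25.8 CPM in WT M2 under MPNST-CM, and overlapped with control medium in both.

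In WT Mφ, 5 of the 10 were called, all higher, beside a background of 11.3% higher and 9.96% lower, with a median log2 fold change of 0.36. In WT M2, 2 of the 10 were called (Hspa5 and Hsp90b1), both lower, beside 11.2% higher and 13.3% lower, with a median of -0.15, and 0 were called without WT M2 replicate 3 in MPNST-CM, where 2 had an unadjusted p under 0.05. Without the 5 libraries of replicate 1, 7 were called in Mφ and 3 in M2 (Calr, Hsp90b1 and Pdia3, all lower), and Pdia6 and Manf in M2 were at 0.03 and 0.0048. In all 27 libraries the counts were 2 in Mφ and 0 in M2, with medians of 0.38 and -0.09. No chaperone reached an unadjusted p under 0.05 in M2 in that fit, while DESeq2 on batch 1 called 2. The summed level of the 3 endothelial markers, of which 1 was detected in all 24 libraries and Tek was at 0, also went with the medium, with 18.3 to 23.4 CPM in WT Mφ in control medium and 56.2 to 60.9 CPM in MPNST-CM, and its part in these differences was not tested.

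In TRAP1 KO cells, 9 of the 10 chaperones had a lower mean in MPNST-CM than in control medium in M2, and 6 of the 10 in Mφ. Sdf2l1, which serves the Hspa5 cycle, and Calr, which serves the glycoprotein cycle, differed most. Sdf2l1 had 38.4, 37.7 and 38.1 CPM in TRAP1 KO Mφ under MPNST-CM, against 68.3, 67.4 and 83.9 CPM in control medium (-0.94, SE 0.16). In TRAP1 KO M2 it had 46.4, 40.00 and 45.7 CPM in MPNST-CM against 159, 99.4 and 147 CPM in control medium (-1.62, SE 0.15), a level 3.07 times lower. These 6 libraries in MPNST-CM lay below every other library of batch 1. Calr had 629.9, 479 and 485 CPM in TRAP1 KO Mφ under MPNST-CM (-0.38, SE 0.13) and 435, 428 and 489 CPM in TRAP1 KO M2 in MPNST-CM (-1.57, SE 0.13), compared with 1288, 1411 and 1328 CPM in TRAP1 KO M2 in control medium. No library overlapped in either comparison.

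Hspa5 had 1189, 1256 and 1303 CPM in TRAP1 KO Mφ under MPNST-CM (-0.18, SE 0.07), below the 1329, 1450.3 and 1465 CPM in control medium. In TRAP1 KO M2 in MPNST-CM it had 1213, 1229.6 and 1165 CPM (-0.58, SE 0.07), about the level of WT Mφ in control medium. Pdia6 had 312, 341 and 349 CPM in TRAP1 KO Mφ under MPNST-CM, still above control medium (0.28, SE 0.08), but 274, 281 and 287 CPM in TRAP1 KO M2 in MPNST-CM (-0.72, SE 0.08), well below it. Of the chaperones called in both cell types, Pdia6 alone had opposite directions in Mφ and M2. Hsp90b1 had 663, 632 and 575 CPM in TRAP1 KO Mφ under MPNST-CM (-0.16, SE 0.13, with overlap) and 624, 648 and 578 CPM in TRAP1 KO M2 in MPNST-CM (-0.61, SE 0.13, without). Pdia3 had 398 ± 41.1 CPM in TRAP1 KO M2 in MPNST-CM (-0.84, SE 0.12) and Canx 351 ± 17.2 CPM (-0.66, SE 0.07), both without overlap. In TRAP1 KO Mφ under MPNST-CM, Pdia3 had 384 ± 56.97 CPM (-0.11, SE 0.12) and Canx 362 ± 18.7 CPM (-0.17, SE 0.07).

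Manf, Pdia4 and Dnajb9 were not called between the media in either cell type with all 24 libraries of batch 1. Without the 5 libraries of replicate 1, Manf was called lower in M2 (-0.22, SE 0.08). Manf had 111 ± 9.83 CPM in TRAP1 KO Mφ under MPNST-CM (0.18, SE 0.12) and 101 ± 1.02 CPM in TRAP1 KO M2 in MPNST-CM (-0.22, SE 0.12). The Manf libraries did not overlap between the media in Mφ or in M2. Pdia4 overlapped, with 46.7 ± 14.2 CPM in Mφ (0.36, SE 0.30) and 42.6 ± 2.48 CPM in M2 (-0.04, SE 0.30) in MPNST-CM. Dnajb9 had 18.7, 24.9 and 28.3 CPM in TRAP1 KO Mφ under MPNST-CM and 32.3, 38.98 and 29.7 CPM in TRAP1 KO M2 in MPNST-CM, overlapping with control medium in both (0.14, SE 0.18 and 0.18, SE 0.17).

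In TRAP1 KO M2, 7 of the 10 were called, all lower, beside a background of 16.7% higher and 20.2% lower, and the median log2 fold change was -0.63. In TRAP1 KO Mφ, 1 (Pdia6) was called higher and 3 lower (Sdf2l1, Calr and Hspa5), beside 14.8% higher and 18.1% lower, with a median of -0.14. In the fit of all 27 libraries, 1 was called in M2 (median -0.31) and 0 in Mφ (median -0.09). In Mφ no chaperone reached an unadjusted p under 0.05 in that fit, and DESeq2 on batch 1 called 4. The 3 lower calls and the higher one in Mφ became 2 calls without TRAP1 KO Mφ replicate 2 in MPNST-CM. Without the 5 libraries of replicate 1, 8 were called in M2, with Manf added, and 6 in Mφ, with Canx and Pdia3 added. All of those added were lower in MPNST-CM. The endothelial markers summed to 3.58 to 4.79 CPM in TRAP1 KO M2 in control medium and 42.2 to 43.2 CPM in MPNST-CM, and to 26.8 to 33.02 CPM and 40.3 to 41.3 CPM in TRAP1 KO Mφ. The Schwann cell markers summed to 5.68 to 7.39 CPM and 1.3 to 2.64 CPM in TRAP1 KO M2, the neutrophil markers to 8.46 to 11.01 CPM and 4.5 to 5.39 CPM, and their part in these differences was not tested. In batch 2, TRAP1 KO M2 had only 1 library in each medium. By their labels, these had 16.9 CPM of Sdf2l1 in control medium and 142 CPM in MPNST-CM, and 452 and 1212 CPM of Calr, which is the opposite direction from batch 1. Both are the libraries that lay closer to other groups than to their labels, so their direction cannot be read as a response to the medium.

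Set against WT in the same medium, TRAP1 KO cells differed little in control medium and more in MPNST-CM. In Mφ in control medium, Hspa5 alone was called of the 10 (0.30, SE 0.07, higher in TRAP1 KO), beside a background of 8.64% higher and 7.97% lower, and the median was 0.07. In M2 in control medium, Hsp90b1 (-0.43, SE 0.13), Manf (-0.36, SE 0.12), Pdia6 (-0.29, SE 0.08) and Hspa5 (-0.20, SE 0.07) were called lower in TRAP1 KO, beside 8.56% higher and 7.87% lower, with a median of -0.24, and 1 was called without WT replicate 2. In MPNST-CM, 6 of the 10 were called lower and 1 (Dnajb9, 0.55, SE 0.18, with overlap of the groups) higher in TRAP1 KO Mφ, beside 19.1% higher and 19.2% lower. The largest differences there were those of Sdf2l1 (-1.28, SE 0.15) and Calr (-0.95, SE 0.13), and the median was -0.33. In M2 in MPNST-CM, 9 of the 10 were called lower in TRAP1 KO, all but Dnajb9, beside 17.2% higher and 16.8% lower, with a median of -0.58. Sdf2l1 was 3.06 times and Calr 2.75 times lower than in WT M2, Pdia6 followed at -0.89 (SE 0.08) on the log2 scale, and Hspa5, Hsp90b1, Pdia3, Canx and Manf lay between -0.58 and -0.41. Pdia4, at -0.94 (SE 0.29), again rested in part on WT M2 replicate 1 in MPNST-CM, without which it was -0.55. Over all 27 libraries the counts called were 0 and 1 in control medium (Mφ and M2) and 2 and 5 in MPNST-CM, with medians of 0.02, -0.40, -0.35 and -0.51. In Mφ in control medium, 1 chaperone had an unadjusted p under 0.05 in that fit and DESeq2 on batch 1 called 1. Without the 5 libraries of replicate 1, 5 were called in M2 in control medium and 9 in Mφ in MPNST-CM. The 5 neutrophil markers summed to 1.87 to 1.98 CPM in TRAP1 KO Mφ and 7.01 to 9.8 CPM in WT Mφ in control medium, and the endothelial markers to 42.2 to 43.2 CPM in TRAP1 KO M2 and 20.04 to 28.1 CPM in WT M2 under MPNST-CM, and their part in the genotype differences was not tested.

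The difference between the genotypes in their response to MPNST-CM was largest for Calr and Sdf2l1. Here a log2 value is the response of TRAP1 KO minus that of WT. It was -1.14 (SE 0.21) for Sdf2l1 and -0.95 (SE 0.18) for Calr in Mφ, and -1.29 (SE 0.21) and -1.35 (SE 0.18) in M2. Hspa5 had -0.62 (SE 0.10) in Mφ and -0.38 (SE 0.10) in M2, and Canx -0.37 (SE 0.10) and -0.55 (SE 0.10). All of the 10 but Dnajb9 had a negative value in both cell types. Pdia6 had -0.35 (SE 0.11) and -0.59 (SE 0.11), and Pdia3 -0.40 (SE 0.17) and -0.74 (SE 0.17). Hsp90b1 differed by -0.39 (SE 0.18) in Mφ and -0.12 (SE 0.18) in M2, Manf by -0.46 (SE 0.16) and -0.05 (SE 0.16), and Pdia4 by -0.12 (SE 0.42) and -0.40 (SE 0.41). Dnajb9 was the only 1 of the 10 with a positive value in both, 0.12 (SE 0.26) and 0.31 (SE 0.25). In Mφ, 5 of the 10 were called, all negative, beside a background of 8.17% higher and 11.5% lower, and in M2 6 were, all negative, beside 9.36% higher and 10.8% lower. With all 27 libraries these counts were 1 and 0, and no chaperone had an unadjusted p under 0.05 in M2 in that fit, while DESeq2 on batch 1 called 6. Without the 5 libraries of replicate 1, 7 were called in Mφ and 6 in M2.

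The other genes of the ER were taken from 10 lists by role (133 genes, of which 125 were tested), and their adjusted p-values are edgeR's over 13614 genes. Not tested for low counts were Cdnf, Fkbp2, Fkbp10, Ppib, Serpinh1, Derl3, Ost4 and Kdelr3, with at most 19 counts in a library. Most of the ER genes tested rose in M2. Of the 125 other ER genes tested, 79 rose and 1 fell, with a median log2 fold change of 0.46 against -0.03 over all genes, in WT M2, and 74 rose and 4 fell in TRAP1 KO M2 (median 0.35). The background was 19.1% higher and 18.1% lower in WT, and 15.6% and 12.9% in TRAP1 KO. Among the ER genes that rose were partners of Hspa5: 10 of 11 tested in WT and 10 in TRAP1 KO. Hyou1, the large Hsp70 that exchanges nucleotide on Hspa5, had 11.2, 13.4 and 12.1 CPM in WT Mφ and 32.8, 30.3 and 29.8 CPM in WT M2 (1.34, SE 0.13, adjusted p = 4.50e-09), with no overlap. Creld2, of the same list, had 19.3, 21.5 and 25.6 CPM in WT Mφ and 49.4, 52.7 and 57.7 CPM in WT M2 (1.27, SE 0.14, adjusted p = 2.60e-08). In the oligosaccharyltransferase, which attaches N-glycans, 9 of 10 rose in WT and 9 in TRAP1 KO, with Tusc3 at 1.39 (SE 0.13, adjusted p = 1.52e-09) and 1.19 (SE 0.13, adjusted p = 4.23e-08). The ER calcium pumps split: Atp2a2 (SERCA2) rose in WT M2 (1.03, SE 0.09, adjusted p = 1.80e-10) and Atp2a3 (SERCA3) fell (-1.60, SE 0.19, adjusted p = 8.37e-08), the only ER gene of the lists that did.

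With MPNST-CM, more ER genes rose than fell in WT Mφ. Of the 125 other ER genes tested, 33 rose and 3 fell, with a median log2 fold change of 0.15 against -0.02 over all genes. The background was 11.3% higher and 9.96% lower. Hyou1 went from 12.2 ± 1.14 to 22.7 ± 0.927 CPM (adjusted p = 1.49e-05), P4hb, the main disulfide isomerase, from 273 ± 16.1 to 426 ± 6.35 CPM (adjusted p = 3.28e-07) and Dnajb11, a J-domain partner of Hspa5, from 121 ± 11.6 to 170.3 ± 8.93 CPM (adjusted p = 0.000294). In WT M2, 6 ER genes rose and 22 fell (median -0.14, against -0.03 over all genes), beside 11.2% higher and 13.3% lower of all genes. Of the ER genes, 13 passed in all without WT M2 replicate 3 or 4 in control medium. Without the 5 libraries of replicate 1, 16 rose and 15 fell, so the surplus of genes that fell rests on them. Among those that fell was Prdx4, an ER peroxidase, at -0.48 (SE 0.09, adjusted p = 0.000155). In TRAP1 KO M2, 26 rose and 43 fell (median -0.17, against -0.01 over all genes), beside 16.7% higher and 20.2% lower of all genes. The lists differed in direction. The oligosaccharyltransferase had 8 of 10 lower, glycoprotein folding and trimming 7 of 13, and the Hspa5 partners 4 of 11, whereas KDEL receptors and COPII coat genes had 7 of 12 higher. Erp29, a redox-inactive relative of the disulfide isomerases, fell from 660.0 ± 21.7 to 302 ± 1.89 CPM (-1.13, SE 0.06, adjusted p = 2.11e-14). In TRAP1 KO Mφ, 42 ER genes rose and 8 fell, beside 14.8% higher and 18.1% lower of all genes. Their median was 0.17, against -0.04 over all genes, while the median of the 10 chaperones was -0.14.

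**Figure D4:**
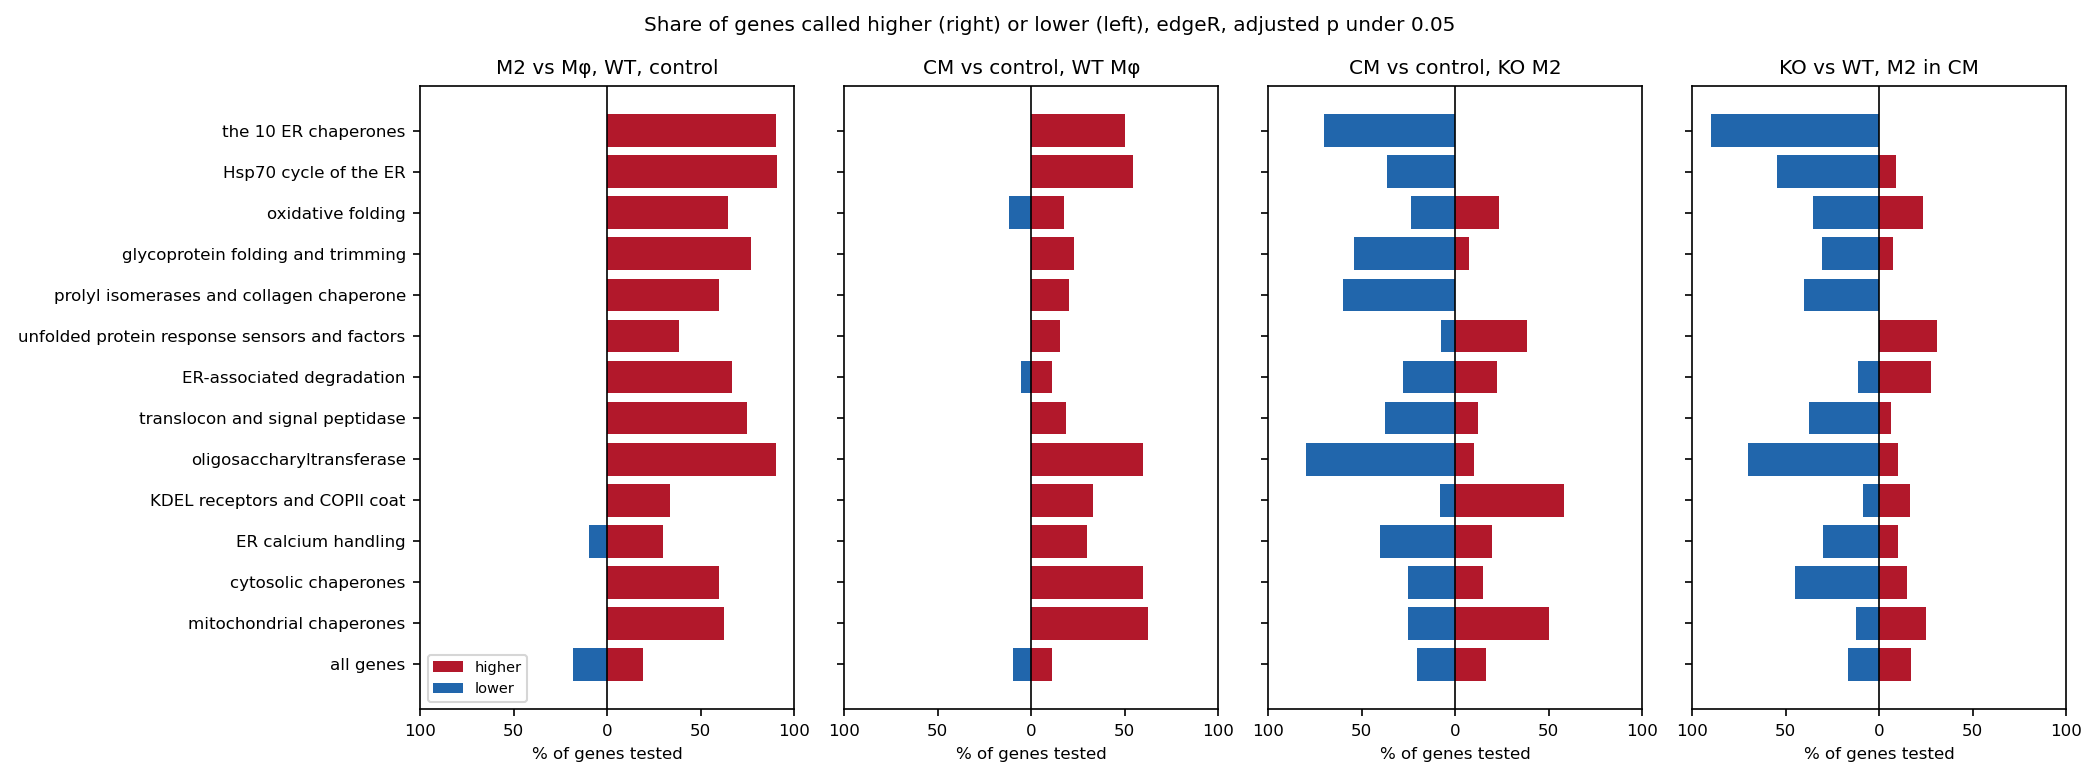
Share of tested genes called higher (red, to the right) or lower (blue, to the left) at an adjusted p under 0.05 in edgeR, in percent on the x axis, for the 10 ER chaperones, 10 lists of other ER genes, cytosolic and mitochondrial chaperones and all genes, in 4 comparisons of batch 1. In KO M2 in MPNST-CM against control medium, 7 of the 10 chaperones were lower and none higher, beside 5 of 13 unfolded protein response genes higher and 1 lower.

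Several genes of the unfolded protein response rose with MPNST-CM in TRAP1 KO cells, and of the sensors Ern1, Eif2ak3 and Atf6 it was Ern1 alone. Of the 13 tested, 5 rose and 0 fell with MPNST-CM in TRAP1 KO Mφ, and 5 rose and 1 fell in TRAP1 KO M2, where of all genes 14.8% (Mφ) and 16.7% (M2) rose. The list itself was not tested. Atf4, the factor translated when eIF2α is phosphorylated, had 196, 203 and 204 CPM in TRAP1 KO M2 in control medium and 587, 522 and 609 CPM in MPNST-CM (1.51, SE 0.08, adjusted p = 4.27e-14). In WT M2 it had 214, 187 and 177 CPM in control medium and 270.3, 275 and 282 CPM in MPNST-CM (0.52, SE 0.08, adjusted p = 2.35e-05), so that it rose in both genotypes and the response was larger in TRAP1 KO by 0.99 (SE 0.12, adjusted p = 3.34e-07). Ddit3 (CHOP), an Atf4 target that favours cell death, had 66.3, 67.1 and 58.3 CPM in TRAP1 KO Mφ under MPNST-CM and 17.5, 16.02 and 12.3 CPM in WT Mφ in MPNST-CM (2.07, SE 0.15, adjusted p = 2.10e-11). It was also higher in TRAP1 KO in control medium, in Mφ (0.96, SE 0.16, adjusted p = 5.51e-05) and in M2 (0.46, SE 0.16, adjusted p = 0.0453). Ern1 had 88.2, 83.7 and 79.9 CPM in TRAP1 KO M2 in MPNST-CM and 29.8, 34.2 and 29.3 CPM in WT M2 under MPNST-CM (1.43, SE 0.10, adjusted p = 1.57e-11). No library of these 3 genes overlapped between the genotypes in MPNST-CM.

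Xbp1, the factor that Ern1 splices, went from 156 ± 17.5 to 259.7 ± 24.1 CPM with MPNST-CM in TRAP1 KO Mφ (adjusted p = 0.000168) and from 144 ± 19.6 to 209.5 ± 11.5 CPM in TRAP1 KO M2 (adjusted p = 0.0034). Counts per gene from the 3′ end do not tell its spliced from its unspliced form. Atf6 did not pass in these comparisons (0.12, SE 0.10, adjusted p = 0.426, and 0.22, SE 0.10, adjusted p = 0.11), and neither did Eif2ak3 (0.02, SE 0.30, adjusted p = 0.97, and -0.07, SE 0.30, adjusted p = 0.897). Herpud1, which helps degrade ER proteins, rose with MPNST-CM in TRAP1 KO M2 (0.42, SE 0.10, adjusted p = 0.00126). Ero1a, the oxidase that recharges disulfide isomerases, had 18.01, 21.2 and 23.3 CPM in TRAP1 KO Mφ in control medium and 86.9, 93.7 and 109 CPM in MPNST-CM (2.21, SE 0.11, adjusted p = 4.58e-15), and rose less in WT Mφ (0.69, SE 0.11, difference 1.52, SE 0.15, adjusted p = 2.39e-08). Ppic, an ER prolyl isomerase, fell with MPNST-CM in TRAP1 KO M2 (-1.80, SE 0.20, adjusted p = 3.98e-08), from 18.3 ± 0.593 to 5.24 ± 0.828 CPM.

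**Figure D5:**
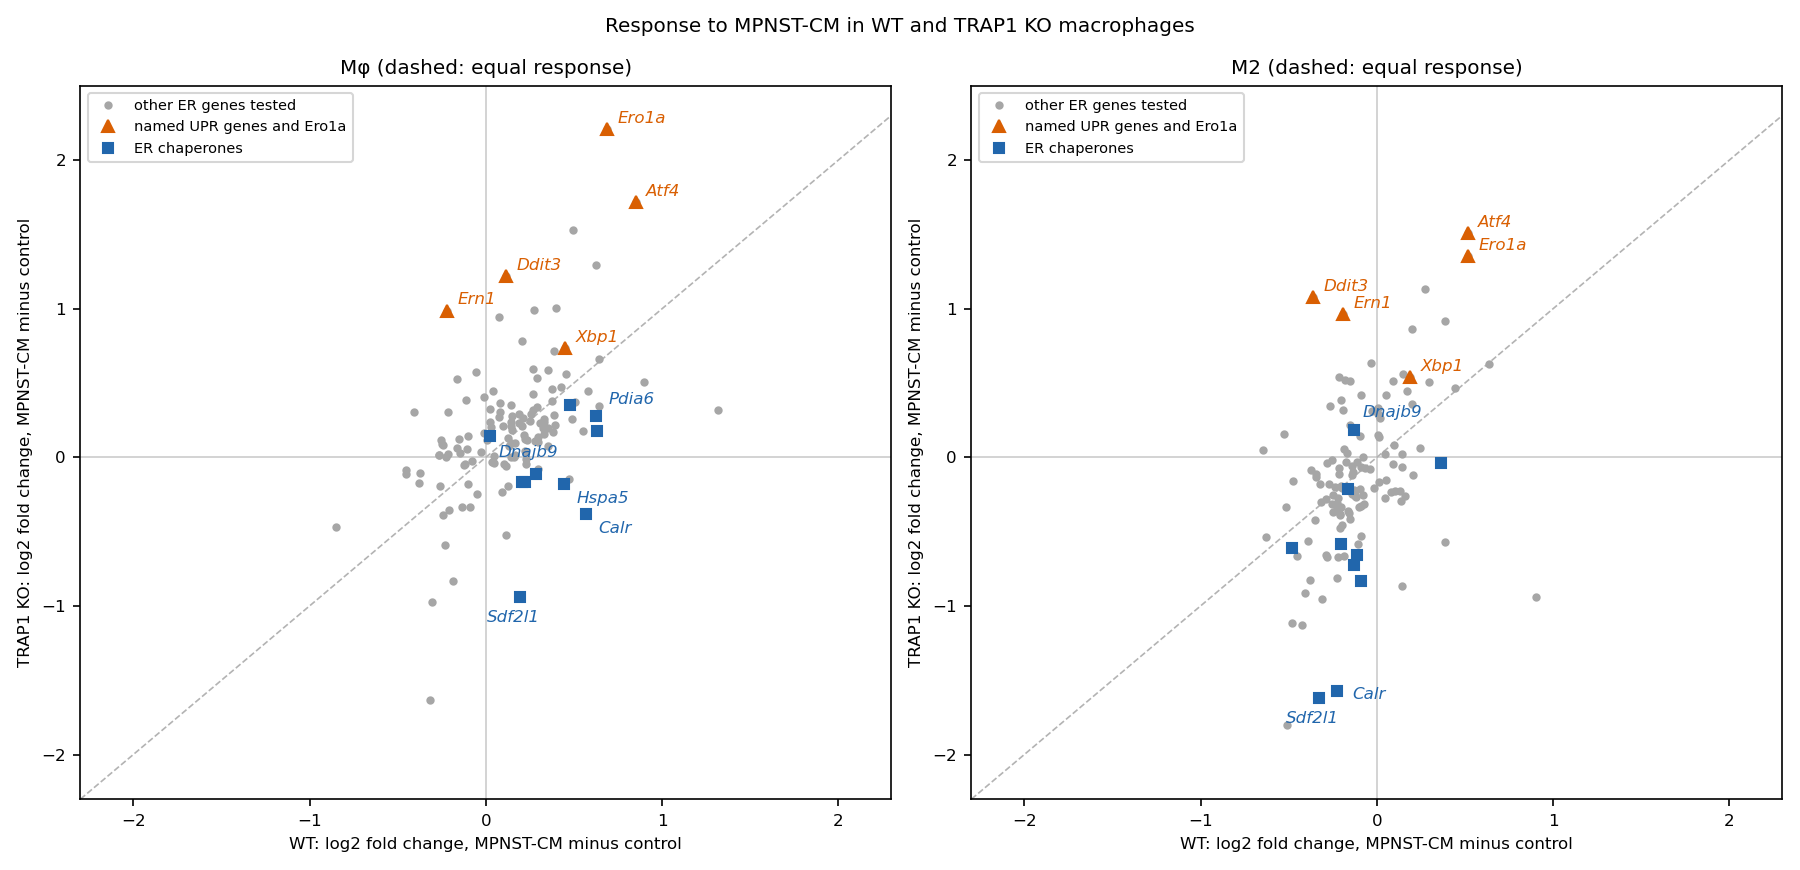
Log2 fold change in MPNST-CM against control medium in WT (x axis) and in TRAP1 KO cells (y axis), for Mφ (left) and M2 (right), in batch 1 with 3 libraries per group, with the dashed line where both genotypes respond alike. The chaperones (blue squares) lie below the line, apart from Dnajb9, and Atf4, Ddit3, Ern1, Xbp1 and Ero1a (orange triangles) above it.

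Between the genotypes in MPNST-CM, 6 of the 13 unfolded protein response genes were higher in Mφ of TRAP1 KO and 4 in TRAP1 KO M2, and 0 were lower in either, beside 19.1% and 17.2% of all genes higher. Of all 125 other ER genes, 33 were higher and 13 lower in TRAP1 KO Mφ (median 0.11, against 0.04 over all genes). The background there was 19.1% higher and 19.2% lower. In TRAP1 KO M2, 20 ER genes were higher and 37 lower (median -0.07, against 0.05), beside 17.2% and 16.8% of all genes. In control medium, 8 were higher and 4 lower in TRAP1 KO Mφ, and 4 higher and 6 lower in TRAP1 KO M2. These are smaller shares than the 8.64% higher and 7.97% lower of all genes in Mφ and the 8.56% and 7.87% in M2. Without the 5 libraries of replicate 1, 11 were higher and 20 lower in M2. Creld2 was lower in TRAP1 KO M2 in both media (-0.56, SE 0.13, adjusted p = 0.00405, and -1.04, SE 0.14, adjusted p = 8.95e-07), as Hspa5, Hsp90b1, Manf and Pdia6 were. The difference in response was called positive for 17 and negative for 5 of the 125 in Mφ, and for 15 and 17 in M2, or 16 and 36 without the 5 libraries of replicate 1. The background over all genes was 8.17% positive and 11.5% negative in Mφ, and 9.36% and 10.8% in M2. With all 27 libraries, fewer ER genes passed in these comparisons of MPNST-CM: 12 in WT Mφ, 0 in WT M2 and 11 in TRAP1 KO M2, against 36, 28 and 69 in batch 1. In WT M2, 12 of the 125 had an unadjusted p under 0.05 in that fit, and DESeq2 on batch 1 called 26. Among the other 4 ER genes tested whose promoter held the element, with MPNST-CM in TRAP1 KO M2, Creld2 fell (-0.59, SE 0.14, adjusted p = 0.00128), and Dnajc3 (-0.26, SE 0.11, adjusted p = 0.0628), Ero1b (-0.25, SE 0.16, adjusted p = 0.247) and Syvn1 (0.16, SE 0.30, adjusted p = 0.727) did not pass.

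Chaperones of other compartments were compared to see where the ER set differed. Of 20 cytosolic chaperones tested, 12 rose and 0 fell with MPNST-CM in WT Mφ (11.3% and 9.96% of all genes), as did 5 and 0 of 8 mitochondrial ones. With IL-4 in WT, 12 cytosolic and 5 mitochondrial chaperones rose and 0 fell (19.1% and 18.1% of all genes). In TRAP1 KO, 9 and 3 rose and 0 and 1 fell with IL-4 (15.6% and 12.9%). Thus other chaperones shared these gains. Under MPNST-CM, 3 cytosolic chaperones were higher and 9 lower in TRAP1 KO M2 than in WT M2 (17.2% and 16.8% of all genes). In Mφ under MPNST-CM, 3 were higher and 10 lower in TRAP1 KO (19.1% and 19.2%). With MPNST-CM in TRAP1 KO M2, 3 of 20 cytosolic chaperones rose and 5 fell (median -0.14). Of 8 mitochondrial chaperones, 4 rose and 2 fell there (median 0.23), beside 16.7% and 20.2% of all genes. The ER chaperones had 0 higher and 7 lower in that comparison (median -0.63). Hsp90aa1, the inducible cytosolic relative of Hsp90b1 and Trap1, had 511, 485 and 481 CPM in WT Mφ in MPNST-CM and 203, 209.6 and 226 CPM in TRAP1 KO Mφ under MPNST-CM (-1.21, SE 0.08, adjusted p = 4.52e-12), a larger gap than that of Hsp90b1 (-0.29, SE 0.13). In M2 in MPNST-CM, Hsp90aa1 differed by -0.63 (SE 0.08, adjusted p = 7.36e-07), Hsp90ab1 by -0.39 (SE 0.08, adjusted p = 0.000582) and Hsp90b1 by -0.56 (SE 0.13), all lower in TRAP1 KO. The gaps between these family members were not themselves tested.

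Across the 8 group means, the profile of Dnajb9 was the least like those of the other chaperones. Pearson's r of each with the mean z-scored profile of the other 9 was 0.97 for Hspa5, 0.94 for Hsp90b1 and Pdia6, 0.93 for Pdia3 and Canx, 0.92 for Calr, 0.86 for Sdf2l1, 0.84 for Manf and 0.66 for Pdia4, and 0.23 for Dnajb9. Over the 45 pairs of the 10 genes the median r was 0.84, from 0.039 to 0.98. These correlations describe 8 groups that share libraries and normalization, and the genes were chosen on the same levels. The genes outside the 10 whose group means were most like their mean profile, among 8195 with a mean of at least 10 CPM, were Zmpste24 (r = 0.99), Lilr4b, Stt3b, Mogs, Actr1b, Creld2, Lilrb4a, F8a, Ssr2 and Ado (r = 0.96). Stt3b, a catalytic subunit of the oligosaccharyltransferase, had 160 CPM in WT Mφ and 291 CPM in WT M2 in control medium, and 169 CPM in TRAP1 KO M2 in MPNST-CM. Mogs, which trims the first glucose from N-glycans, had 54.9, 91.5 and 49.8 CPM in the same groups. An r over 0.9 was found for 12 of 118 other ER genes (10.2%) and for 134 of all 8195 genes (1.64%).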

How the data were processed

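Libraries were prepared with QuantSeq 3′ mRNA-seq (FWD) and sequenced as single-end reads. Per the labels and the study's methods, the authors trimmed reads with Trimmomatic, mapped them with HISAT2, filtered them with SAMtools and counted them on genes with featureCounts. The deposited values are raw counts of reads per gene, without normalization. The mouse build is mm39 per the file headers and the submitters' processing notes and mm10 in the study's methods. No coordinates of that table were used, and the strand setting of the counting was not given in the sources used here. A further 5 columns could not be matched to a sample and were left out. Promoters came from RefSeq on GRCm38.p6, with 250 bases before and 50 after each start.

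Libraries were grouped by their labels. Counts of the 24 libraries of batch 1 (7037684 to 9089792 per library; 9997776 to 11152362 in batch 2) were scaled by TMM and passed through filterByExpr (by group) in edgeR 4.0.16, run under R 4.3.3 with limma 3.58.1. Its robust quasi-likelihood model held all 8 groups, and p-values were adjusted by Benjamini-Hochberg over 13614 genes, with 0.05 as threshold. The steps were tested on simulated data. The study's methods name a DESeq object and a corrected p of 0.05, so DESeq2 1.42.0 was an alternative. Mean log2 CPM used a prior count of 2. Each of the 24 replicate pairs differed beyond sampling noise (chi-square per degree of freedom of 2.11 to 37.4, genes with at least 20 counts). Replicate 1 stood apart in 5 groups, by over 3 times the value of the remaining pair, and a fit without these 5 libraries was added after seeing the data.

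The chaperones and the gene lists were chosen with earlier results of these data known. Named besides the 10 were 12 ER genes in the MPNST-CM comparisons, in each of 12 comparisons up to 5 ER genes with the largest called change among those with 10 CPM or more in the higher group and, outside the differences in response, no overlap of the groups, the 10 genes most alike in profile and the HSP90 family. Syvn1, Derl3 and the genes without a test were named for their promoter or counts. Alternatives were all 27 libraries without and with batch as a covariate, the replicate number as a block, DESeq2, median-of-ratios scaling, all genes with a count, the compared groups alone, each library left out, a prior count of 0.5 and a spacer of 8 to 10 bases.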

Additional observations from a re-analysis of the deposited data

Results flagged for a closer look

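Of 30 sets of 4 values (the 10 chaperones in the 3 groups with a library in batch 2, Dixon's test at 95%), 9 held a library apart from the other 3, in 8 cases replicate 4. The chaperones were chosen on these levels and vary together in the same few libraries. The sets are therefore not independent, and the count is a description. The library labelled TRAP1 KO M2 in MPNST-CM replicate 4 stood above the other 3 of its group for 6 chaperones. It had 1729 CPM of Hspa5 where the others had 1162 to 1224 CPM, and 142 CPM of Sdf2l1 where they had 39.8 to 46.4 CPM. Calr was at 1212 CPM against 426 to 488 CPM, Hsp90b1 at 996 CPM against 576 to 645 CPM, Pdia6 at 563 CPM against 274 to 286 CPM and Manf at 123 CPM against 99.6 to 102 CPM. The library labelled TRAP1 KO M2 in control medium replicate 4 had 452 CPM of Calr against 1265 to 1382 CPM and 392 CPM of Canx against 537 to 551 CPM. In WT Mφ in control medium, replicate 1 had 1115 CPM of Hspa5, below the 1173 to 1181 CPM of the others. These values are scaled over all 27 libraries.

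The response to MPNST-CM differed between TRAP1 KO and WT for ER genes outside the 10 (interaction term in edgeR's quasi-likelihood test, adjusted p under 0.05). In Mφ the difference, TRAP1 KO minus WT, was 1.52 on the log2 scale for Ero1a, -1.32 for Ppic, 1.21 for Ern1, 1.1 for Ddit3 and 1.04 for Krtcap2. In M2 it was 1.44 for Ddit3, -1.29 for Ppic, 1.15 for Ern1, 0.99 for Atf4 and -0.95 for Atp2a3.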

How the results depend on the processing

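No median and no called value changed sign under any alternative run. With all 27 libraries, ER genes called were 12 in WT Mφ, 0 in WT M2 and 11 in TRAP1 KO M2 for MPNST-CM, 2, 26, 4 and 17 for genotype (Mφ control, Mφ MPNST-CM, M2 control, M2 MPNST-CM), and 3 and 1 for the difference in response (Mφ, M2). With batch as a covariate they were 17, 1 and 13, then 1, 29, 5 and 24, then 3 and 3. Chaperones called were 2, 0, 0 and 1 for MPNST-CM (WT Mφ, TRAP1 KO Mφ, WT M2, TRAP1 KO M2), 0, 2, 1 and 5 for genotype, 3 for IL-4 in TRAP1 KO, and 1 and 0 for the difference; with the covariate 3, 0, 0 and 2, then 0, 2, 1 and 5, then 2, then 1 and 0. The medians became -0.31 and -0.35 for MPNST-CM in TRAP1 KO M2, -0.40 and -0.44 for genotype in M2 control, 0.32 and 0.33 for IL-4 in TRAP1 KO and -0.24 and -0.24 for the difference in M2, without and with the covariate. The covariate also gave 0.0006 for genotype in Mφ control and -0.50 in M2 MPNST-CM. Zeros among the chaperones in the covariate fit stood beside 0 (TRAP1 KO Mφ), 0 (WT M2), 1 (genotype, Mφ control) and 1 (difference, M2) at an unadjusted p under 0.05 in edgeR. The share of all genes called in these fits is not given here, so the lower counts cannot be read as particular to the chaperones or the ER genes. Their cause was not tested. Median-of-ratios factors called 1 chaperone for MPNST-CM in WT M2. Without the filter, 17 ER genes and 1 chaperone were called there, 2 chaperones for genotype in Mφ control, and the medians were -0.66 for genotype in M2 MPNST-CM and -0.55 for the difference in M2. The compared groups alone gave 2 chaperones for MPNST-CM in TRAP1 KO Mφ and 18 ER genes for genotype in M2 control.

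Leaving out 1 library, the ER genes called for MPNST-CM in WT M2 ranged from 13 to 29 (13 without WT M2 control replicate 3 or 4, 16 without its replicate 2 or WT M2 MPNST-CM replicate 3, 18 without the latter's replicate 1) and the chaperones from 0 to 2 (0 without WT M2 MPNST-CM replicate 3, where 2 had an unadjusted p under 0.05; 1 without WT M2 MPNST-CM replicate 1 or any library of either M2 control group). For genotype in M2 control they ranged from 5 to 13 and from 1 to 4 (5 and 1 without WT replicate 2, 6 and 2 without WT replicate 3 or TRAP1 KO replicate 2, 2 chaperones without WT replicate 4 or TRAP1 KO replicate 1). Chaperones for MPNST-CM in TRAP1 KO Mφ ranged from 2 to 4 (2 without TRAP1 KO Mφ MPNST-CM replicate 2). Medians ranged from 0.28 to 0.39 for MPNST-CM in WT Mφ, from -0.65 to -0.57 for genotype in M2 MPNST-CM, from 0.42 to 0.60 for IL-4 in TRAP1 KO and from -0.57 to -0.45 for the difference in M2.

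Without the 5 libraries of replicate 1 that stood apart from their groups, chosen after seeing the data, 31 ER genes were called for genotype in M2 control and 52 for the difference in M2, and the medians were 0.52 for IL-4 in TRAP1 KO and -0.53 for the difference in Mφ.

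Whether the replicate numbers of the labels pair the libraries is not settled by these values. Pairs of the same number had a mean correlation of deviations of 0.107 (lowest -0.21), with 34 of 77 over 0.1. The 175 pairs of different numbers had a mean of -0.0451. Of the 24 libraries, 11 correlated best with their own number, and it was replicate 1 that stood apart in several groups. With the replicate block, 76 ER genes and 7 chaperones were called for MPNST-CM in TRAP1 KO M2 and 61 and 9 for genotype in M2 MPNST-CM, and no count moved by over 1.5 times. At a depth of 7037684 to 9089792 counts per library, Dnajb9 had the fewest counts of the 10, 100 at the lowest.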
